A study of Mus musculus with 8 samples.

Results

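The Hox cluster genes are the 39 protein-coding mouse genes named Hoxa, Hoxb, Hoxc or Hoxd followed only by a number, and all 39 were found among the 55487 genes of the count table. The Hoxa cluster on chromosome 6 holds 11 of them, and 10 belong to Hoxb on chromosome 11, 9 to Hoxc on chromosome 15 and 9 to Hoxd on chromosome 2. The samples were bulk RNA-seq libraries of 500 LT-HSCs each, the long-term repopulating fraction of hematopoietic stem cells, sorted from mouse fetal liver at E14.5 as LSK cells that were CD48- and CD150+. They came from embryos that were WT (3 samples), HET (3 samples) or KO (2 samples) for *IκBα*, the NF-κB inhibitor encoded by *Nfkbia*, which was removed by a germline targeted allele and therefore in every tissue of the embryo. WT1, WT2 and HET1 were male and carry the molecule label total RNA, whereas WT3, HET2, HET3, KO1 and KO2 were female and carry the label polyA RNA, so sex and this label cannot be told apart and no KO sample was male. The methods name the same library protocol for all samples, so it is uncertain whether this label marks a real difference. They also state that a further KO sample was discarded for sequencing quality. The methods speak of RNA from several mice of each genotype, and p-values measure the spread between these samples.

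Hox genes encode homeodomain transcription factors that pattern the body axis. Within a cluster they lie in the order of their paralog numbers, with low numbers at the 3′ end and high numbers at the 5′ end, and genes with the same number in different clusters are paralogs. In blood, genes of the Hoxa and Hoxb clusters are known to be active in stem and progenitor cells, *Hoxa9* supports their self-renewal, and levels fall as cells mature. HOX proteins bind DNA together with TALE homeodomain partners such as MEIS1, and their genes are kept active by the MLL complex with its partner menin.

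The libraries held 17895973 to 21720972 counted reads, and 3 reads, the floor used here, corresponded to 0.125 to 0.178 CPM (reads scaled by the TMM-adjusted library size). The floor and all intervals cover counting error only, since the reads carry no molecular identifiers. *Nfkbia*, the targeted gene, was read 243 to 1621 times in WT and HET samples, once in KO1 and not at all in KO2, as labelled. WT3 and HET3 stood apart. The summed CPM of 9 LT-HSC markers (among them *Kit*, *Ly6a*, *Slamf1*, *Procr*, *Hlf* and *Fgd5*) was 290 in WT3 and 201 in HET3, against 604 to 1936 in the other 6 samples, and *Ly6a*, which encodes the SCA1 used in the sort, had 0 reads in HET3. Without *Kit*, which ranged only from 135 to 231 CPM, the markers summed to 142 CPM in WT3 and 30.8 CPM in HET3, against 439 to 1724 CPM in the others. The summed CPM of 5 hepatocyte markers was highest in the same samples, at 1132 in WT3 and 548 in HET3, against 6.26 to 211 in the others, and that of 5 erythroid markers was highest in HET1, at 10684. Sums of 5 neutrophil and 5 macrophage markers were highest in WT3, at 809 and 189 CPM, against 49.9 to 481 and 23.0 to 109 CPM in the others, and those of 7 mesenchymal markers were low throughout, at 2.08 to 11.0 CPM. The edgeR comparisons between groups are therefore also given without these samples, whereas the DESeq2 calls are given with all samples only. With both left out, HET2 is the only female among WT and HET, which limits what the models with sex can then compare. In bulk samples, fewer cells of a type and less RNA per cell cannot be told apart.

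Across the 39 members, transcription was concentrated in a few genes of Hoxa and Hoxb. With an expressed gene defined by a mean of at least 1 CPM over the 8 samples, 9 members were expressed, 6 in Hoxa and 3 in Hoxb and none in Hoxc or Hoxd. A further 12 members had at least 10 reads summed over the samples but a lower mean, and 18 did not reach 10 reads. Of these 18, 13 had no read in any sample, which allows up to 0.0187 CPM over all 8 samples together. The Hoxa cluster held 22572 of the 24831 Hox reads, Hoxb held 2080, Hoxc held 174 and Hoxd held 5. The order of the clusters was the same in all 8 samples, with 3.50 to 255 CPM summed over Hoxa, 0.475 to 25.0 CPM over Hoxb, 0.0521 to 2.84 CPM over Hoxc and 0 to 0.140 CPM over Hoxd, except that Hoxc and Hoxd tied at 1 read each in WT3.

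**Figure D1:**
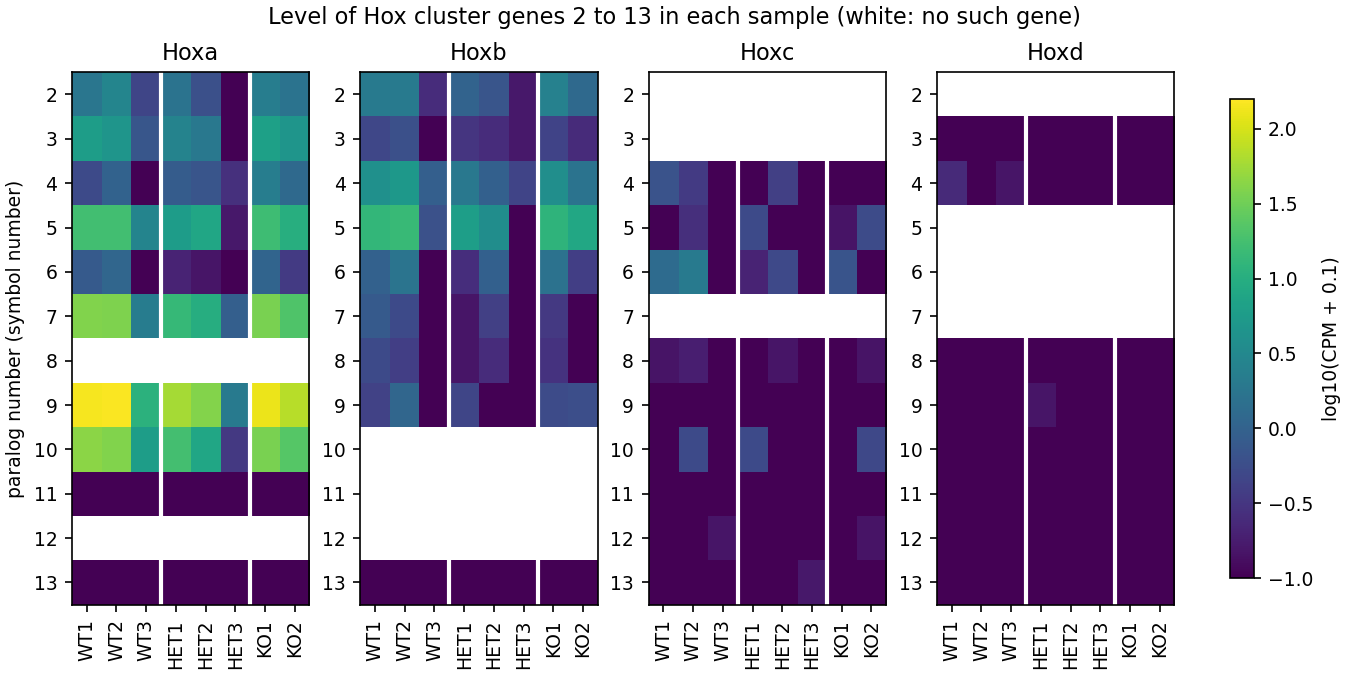
Level of each member with a paralog number from 2 to 13 in each sample, as log10(CPM + 0.1), with 1 panel per cluster, the paralog number on the vertical axis and the samples on the horizontal axis (white cells mark numbers without a gene in that cluster, and white lines separate WT, HET and KO). The bright band at Hoxa number 9 spans all samples, with 151 CPM in WT2 and 1.96 CPM in HET3, and Hoxa numbers 11 and 13 and nearly all of Hoxd are at 0.

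Along the Hoxa cluster, the level peaked at *Hoxa9* and ended abruptly after *Hoxa10*. In mean TPM (reads per exon length, scaled to the same sum in every sample), a scale on which genes can be compared, *Hoxa2* stood at 2.32, *Hoxa3* at 1.71, *Hoxa4* at 1.49, *Hoxa5* at 15.6, *Hoxa6* at 1.45, *Hoxa7* at 21.8, *Hoxa9* at 42.1 and *Hoxa10* at 20.7. The next genes, *Hoxa11* and *Hoxa13*, which pattern the distal limb and the urogenital tract, had no read in any sample. The border falls between the annotated end of *Hoxa10* at chr6:52231197-52240854 and that of *Hoxa11* at chr6:52242106-52245810 (GRCm38, both on the minus strand). The mean level was uneven along the cluster, being lower at *Hoxa3* and *Hoxa4* than at *Hoxa2*, but this order did not hold in every sample. In WT1 *Hoxa3* was at 3.11 TPM and *Hoxa2* at 3.01, and in KO1 *Hoxa4* was at 4.58 and *Hoxa2* at 4.11. *Hoxa6*, at chr6:52206288-52208722 between its abundant neighbours *Hoxa5* and *Hoxa7*, had only 68 reads over all samples. *Hoxa3* and *Hoxa7* share 27.1% and 20.4% of their exon bases with other genes of the annotation, mainly antisense transcripts, as does *Hoxb2* of the Hoxb cluster with 27.3%, and reads on shared bases may be lost or misassigned because the strand setting of the counting is not stated.

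Within Hoxb, the peak was at *Hoxb5*, with a mean of 8.06 TPM, followed by *Hoxb4*, a gene used to expand stem cells in culture, at 2.74 TPM, *Hoxb6* at 1.06 TPM and *Hoxb2* at 1.04 TPM. *Hoxb3*, *Hoxb7*, *Hoxb8* and *Hoxb9* each had between 24 and 58 reads over all samples, and *Hoxb1* and *Hoxb13*, the outermost genes, had none. The level of *Hoxb3* is uncertain, since 52.9% of its exon bases overlap the antisense gene *Hoxb3os*. In Hoxc, *Hoxc6* had 94 reads, *Hoxc10* 26, *Hoxc4* 24 and *Hoxc5* 22, *Hoxc8* had 5, *Hoxc12* 2 and *Hoxc13* 1, and *Hoxc9* and *Hoxc11* had none. *Hoxc5* and *Hoxc10* share exon bases in the annotation and were read in overlapping sets of samples, so their counts may not be independent. In Hoxd, *Hoxd4* had 4 reads, 3 of them in WT1, *Hoxd9* had 1 read, and the other 7 genes had none.

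**Figure D2:**
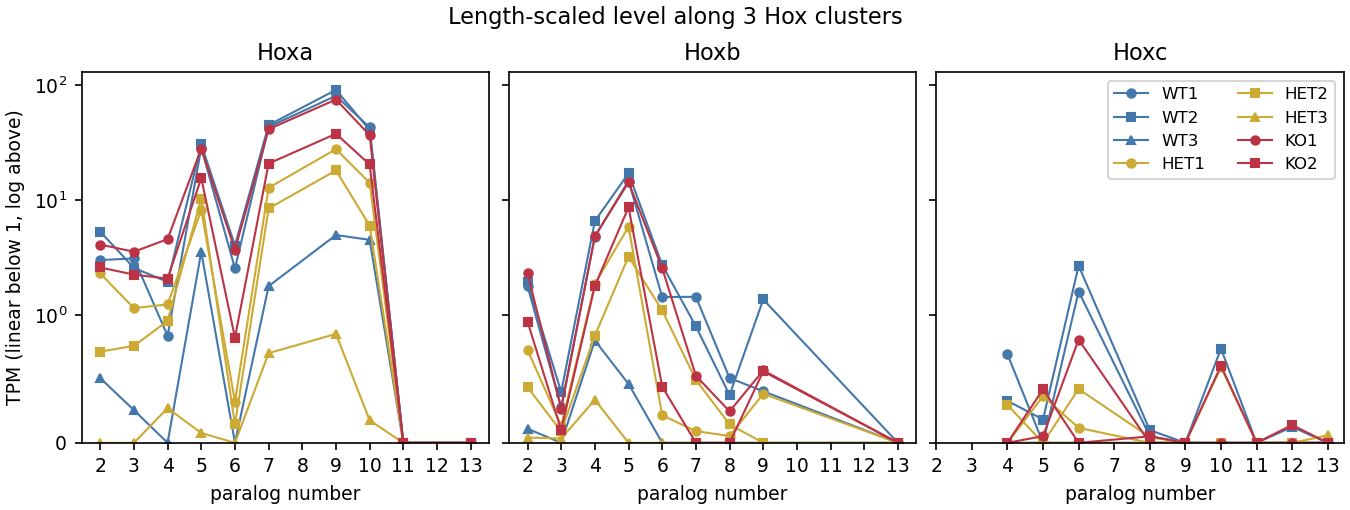
TPM of each member along the Hoxa, Hoxb and Hoxc clusters by paralog number (2 to 13), 1 line per sample, coloured by genotype (vertical axis linear below 1 and logarithmic above). All 8 lines of Hoxa peak at number 9, with mean 42.1 TPM, and fall to 0 at number 11, and WT3 and HET3 run below the other samples from Hoxa number 2 to number 10.

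Grouped by paralog number, group 9 had the highest summed level, 42.5 ± 35.9 TPM (SD, n = 8), followed by group 5 at 23.8 ± 18.7 TPM, group 7 at 22.2 ± 19.3 TPM and group 10 at 21.0 ± 17.4 TPM. The SDs hold the differences between samples, which these groups share, so they do not serve to compare groups. Within samples, group 9 was highest in every sample, and the order of groups 5, 7 and 10 varied. Group 8 averaged 0.197 TPM, groups 12 and 13 less, and group 11 had no read. The Hoxa cluster accounted for 87.3 ± 2.27% (SD, n = 8) of the summed Hox TPM, with a range of 83.2% to 91.2%, so this share varied little between samples whose summed Hox CPM ranged from 4.03 to 283.

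The order of the expressed genes was similar in all samples. By TPM, *Hoxa9* ranked first in 8 of 8 samples. *Hoxa7*, *Hoxa10* and *Hoxa5* filled ranks 2 to 4 in 7 of the 8 samples, in varying order, so the order among these neighbours is not fixed beyond the sample spread. In HET3, which had 68 Hox reads in all, *Hoxb4* took rank 3. *Hoxa9* made up 51.8% of all Hox reads in WT1 (95% Clopper-Pearson interval 50.5% to 53.0%), 53.2% in WT2 (52.1% to 54.4%), 45.1% in WT3 (40.6% to 49.7%), 52.4% in HET1 (50.2% to 54.5%), 53.2% in HET2 (50.6% to 55.7%), 48.5% in HET3 (36.2% to 61.0%), 50.9% in KO1 (49.5% to 52.3%) and 49.4% in KO2 (47.6% to 51.3%). Both KO values lay below those of WT1, WT2, HET1 and HET2 and above those of WT3 and HET3.

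The sharp border inside the Hoxa cluster is shown with the promoters of genes on each side of it. The sequences below are from RefSeq (GRCm38.p6) and run 5′ to 3′ on the minus strand, from 250 bases before to 50 bases after an annotated start. Of the 39 members, 22 had a promoter in this set, 24 promoters in all. Capitals mark matches, on either strand, to the retinoid receptor half-site AGGTCA, the TATA box TATAAA or the PBX-HOX motif TGATNNAT. Each of the printed promoters holds at most 1 match, so none overlap. The first 5 sequences belong to the 4 most abundant Hoxa genes, *Hoxa10* having 2 annotated starts, and the last to the silent *Hoxa11*.
Hoxa5, chr6:52204538-52204837: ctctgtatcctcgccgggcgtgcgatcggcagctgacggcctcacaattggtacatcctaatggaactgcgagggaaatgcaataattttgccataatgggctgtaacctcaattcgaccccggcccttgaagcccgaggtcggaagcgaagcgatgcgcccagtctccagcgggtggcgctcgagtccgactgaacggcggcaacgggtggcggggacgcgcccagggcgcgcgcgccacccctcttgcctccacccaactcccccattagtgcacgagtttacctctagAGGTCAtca
Hoxa7, chr6:52218524-52218823: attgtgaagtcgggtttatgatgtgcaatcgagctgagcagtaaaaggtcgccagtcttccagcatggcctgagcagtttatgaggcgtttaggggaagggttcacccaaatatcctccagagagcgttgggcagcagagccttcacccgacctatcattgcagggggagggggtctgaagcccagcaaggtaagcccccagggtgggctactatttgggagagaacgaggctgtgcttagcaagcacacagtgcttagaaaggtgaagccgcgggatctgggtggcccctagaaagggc
Hoxa9, chr6:52227321-52227620: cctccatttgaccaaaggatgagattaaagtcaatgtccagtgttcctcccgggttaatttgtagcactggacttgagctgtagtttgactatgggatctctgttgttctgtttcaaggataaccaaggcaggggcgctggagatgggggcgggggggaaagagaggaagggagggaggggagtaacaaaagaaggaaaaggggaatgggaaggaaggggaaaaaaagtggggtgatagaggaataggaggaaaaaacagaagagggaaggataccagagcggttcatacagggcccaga
Hoxa10, chr6:52234890-52235189: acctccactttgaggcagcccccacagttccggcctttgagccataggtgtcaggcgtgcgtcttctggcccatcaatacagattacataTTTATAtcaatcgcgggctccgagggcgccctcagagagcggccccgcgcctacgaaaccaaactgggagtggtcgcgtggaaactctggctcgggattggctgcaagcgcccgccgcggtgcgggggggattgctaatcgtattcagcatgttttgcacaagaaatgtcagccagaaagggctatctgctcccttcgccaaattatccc
Hoxa10, chr6:52240805-52241104: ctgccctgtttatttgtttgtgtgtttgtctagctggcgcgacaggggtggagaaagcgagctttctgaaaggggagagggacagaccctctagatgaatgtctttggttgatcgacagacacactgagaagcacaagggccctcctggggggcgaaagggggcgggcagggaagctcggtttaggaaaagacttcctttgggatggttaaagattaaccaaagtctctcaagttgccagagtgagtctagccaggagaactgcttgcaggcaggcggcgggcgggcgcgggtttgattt
Hoxa11, chr6:52245761-52246060: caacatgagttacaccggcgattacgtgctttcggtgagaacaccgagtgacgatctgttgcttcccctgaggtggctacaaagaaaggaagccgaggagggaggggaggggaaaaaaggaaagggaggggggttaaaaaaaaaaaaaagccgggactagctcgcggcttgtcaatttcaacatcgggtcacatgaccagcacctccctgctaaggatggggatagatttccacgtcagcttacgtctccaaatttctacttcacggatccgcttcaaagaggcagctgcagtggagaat

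Matches were found on both sides of the expression threshold. The half-site AGGTCA was in 16.3% of all 32851 promoters of the set and in 7 of the 24 Hox promoters, those of the expressed *Hoxa5* and *Hoxb4*, the weakly read *Hoxc4* and *Hoxd4*, and the silent *Hoxd3*, *Hoxd8* and *Hoxd10*. TATAAA was in 13.6% of all promoters and in those of *Hoxa10*, *Hoxb8*, *Hoxd4* and *Hoxd13*. TGATNNAT was in 8.85% of all promoters and in those of *Hoxa2*, *Hoxb1*, *Hoxb8* and *Hoxd11*. The NF-κB consensus was in 9.38% of all promoters and, among Hox genes, only in that of the silent *Hoxd1*. These matches are descriptions of these windows only.

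Between genotypes, the expressed members were lower in HET than in WT on average and ranged widely within WT and HET, where WT3 and HET3 were the lowest samples for each of the 9 genes. *Hoxa9*, a self-renewal gene of stem and progenitor cells at chr6:52223100-52231089, stood at 142 CPM in WT1, 151 in WT2, 11.2 in WT3, 58.4 in HET1, 40.3 in HET2, 1.96 in HET3, 126 in KO1 and 72.0 in KO2. WT1, WT2 and KO1 were high, KO2 and HET1 and HET2 followed, and WT3 and HET3 were low, so the KO samples lay inside the range of WT. The mean was 101 ± 78.2 CPM in WT (SD, n = 3), 33.6 ± 28.8 CPM in HET (SD, n = 3) and 99.2 ± 38.4 CPM in KO (SD, n = 2).

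*Hoxa10*, which like *Hoxa9* belongs to the Abd-B-like class, stood at 44.2 CPM in WT1, 39.7 in WT2, 5.99 in WT3, 17.4 in HET1, 7.82 in HET2, 0.237 in HET3, 36.3 in KO1 and 22.8 in KO2. *Hoxa7*, a central Hox gene expressed in early blood progenitors, stood at 39.3 CPM in WT1, 38.4 in WT2, 2.08 in WT3, 13.9 in HET1, 9.69 in HET2, 0.830 in HET3, 36.0 in KO1 and 20.5 in KO2. For both genes the KO samples lay below WT1 and WT2 and above the other 4 samples. *Hoxa5*, a central gene known for its role in lung and rib development, stood at 16.9 CPM in WT1, 17.0 in WT2, 2.71 in WT3, 5.80 in HET1, 7.72 in HET2, 0.0593 in HET3, 15.9 in KO1 and 9.98 in KO2. *Hoxb5*, a gene used to mark long-term stem cells, stood at 13.0 CPM in WT1, 14.2 in WT2, 0.521 in WT3, 6.17 in HET1, 3.58 in HET2, 0 in HET3, 12.0 in KO1 and 8.26 in KO2. The order of the samples was thus nearly that of *Hoxa9* in each of these genes.

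The 4 weaker expressed genes gave similar orders. *Hoxb4* stood at 3.88 CPM in WT1, 5.01 in WT2, 0.833 in WT3, 1.81 in HET1, 0.858 in HET2, 0.356 in HET3, 3.77 in KO1 and 1.57 in KO2. *Hoxb2*, an anterior gene of hindbrain patterning, stood at 1.97 CPM in WT1, 2.01 in WT2, 0.156 in WT3, 0.957 in HET1, 0.605 in HET2, 0.0593 in HET3, 2.45 in KO1 and 1.13 in KO2. Only KO1 exceeded both male WT samples for this gene. *Hoxa3*, an anterior gene needed for the thymus and parathyroid, stood at 5.90 CPM in WT1, 4.60 in WT2, 0.625 in WT3, 2.61 in HET1, 1.82 in HET2, 0 in HET3, 6.46 in KO1 and 4.62 in KO2. *Hoxa2*, an anterior gene of the branchial arches, stood at 1.68 CPM in WT1, 2.80 in WT2, 0.365 in WT3, 1.54 in HET1, 0.504 in HET2, 0 in HET3, 2.20 in KO1 and 1.57 in KO2. The ratio of the KO mean to the WT mean ran from 0.823 for *Hoxb4* to 1.50 for *Hoxa3* over the 9 expressed genes, and the WT mean was 2.37 times (*Hoxa2*) to 3.52 times (*Hoxa10*) the HET mean. These ratios include WT3 and HET3. The mean of WT1 and WT2 alone was 146 CPM for *Hoxa9*, 41.9 for *Hoxa10*, 38.8 for *Hoxa7*, 16.9 for *Hoxa5*, 13.6 for *Hoxb5* and 4.45 for *Hoxb4*, against a KO mean of 99.2, 29.6, 28.2, 12.9, 10.1 and 2.67 CPM. Without WT3 the KO mean was thus below the WT mean for these 6 genes, and also for *Hoxa2* and *Hoxb2*, but not for *Hoxa3*, at 5.54 against 5.25 CPM.

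**Figure D3:**
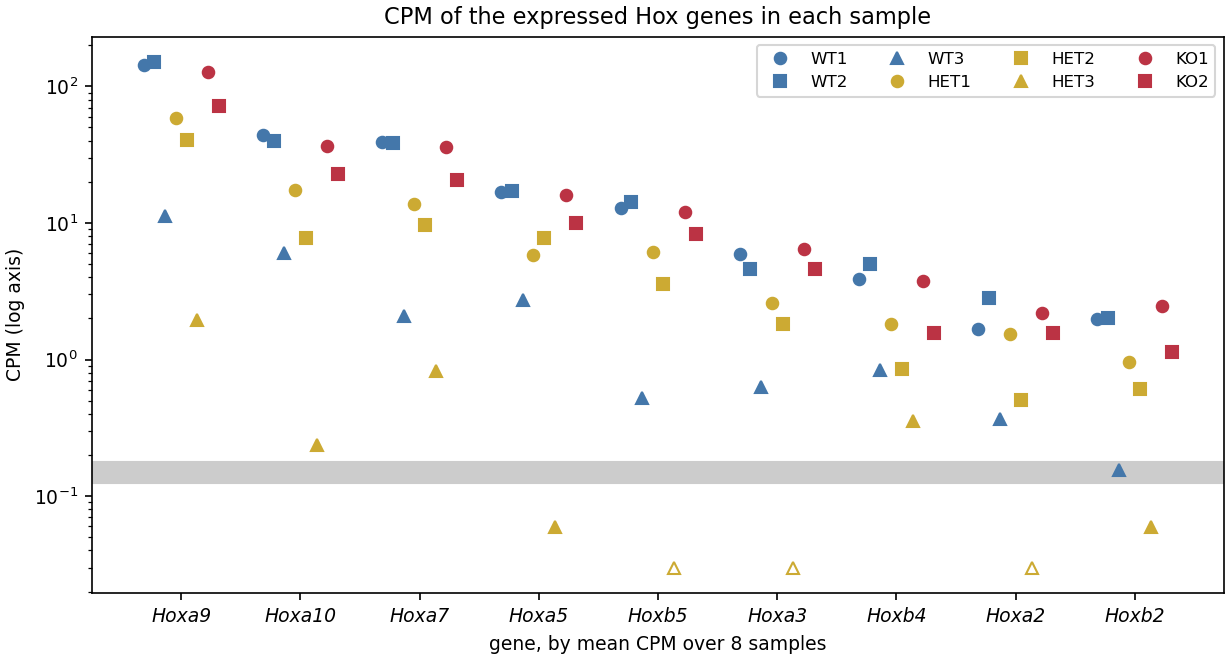
CPM of the 9 expressed members in each of the 8 samples on a log axis, 1 symbol per sample, coloured by genotype (the grey band is the range of the 3-read level over the samples, and open triangles are genes with 0 reads in HET3, drawn at the bottom of the axis). For *Hoxa9* the KO samples at 126 and 72.0 CPM lie between WT1 and WT2 above and HET1 below, and HET3 is lowest for every gene.

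The comparison of KO with WT and HET asks whether loss of *IκBα* changes these genes. As in the methods, WT and HET formed 1 reference group and sex was a covariate. In edgeR's quasi-likelihood test, 0 of 21 tested members were called (adjusted p under 0.05 and a log2 change beyond 1 in either direction), where 0% of all 20610 genes were called. At an unadjusted edgeR p under 0.05, 11 of 21 members (52.4%) were higher in KO, against 15.7% of all genes, and none was lower, against 9.48%. These 11 were *Hoxa2*, *Hoxa3*, *Hoxa6*, *Hoxa7*, *Hoxa9*, *Hoxa10*, *Hoxb2*, *Hoxb4*, *Hoxb5*, *Hoxb9* and *Hoxc5*. The tool of the methods, DESeq2 with apeglm shrinkage, called 7 members higher in KO (33.3%), against 6.5% of all genes, and none lower, against 0.597%. These were *Hoxa2*, *Hoxa7*, *Hoxa9*, *Hoxa10*, *Hoxb2*, *Hoxb4* and *Hoxb9*. The median fitted log2 fold change was 2.64 over the 21 tested members, 19 of which were above 0, and 0.13 over all genes, of which 55.2% were above 0.

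The fitted log2 fold change of KO was 2.47 ± 0.93 (SE) for *Hoxa9*, with an edgeR adjusted p of 0.166. It was 2.65 ± 0.94 for *Hoxa10* (adjusted p = 0.159), 2.74 ± 0.88 for *Hoxa7* (adjusted p = 0.152), 1.88 ± 1.13 for *Hoxa5* (adjusted p = 0.317) and 2.88 ± 1.21 for *Hoxb5* (adjusted p = 0.188). In CPM the KO mean of these genes was close to the mean of all WT samples and below that of WT1 and WT2, whereas the model with sex compares the female KO samples with the female level of WT and HET, which rests on WT3, HET2 and HET3. Without sex in the model, the fold change of *Hoxa9* was 0.56 ± 1.15, that of *Hoxa10* 0.62 ± 1.19, that of *Hoxa7* 0.70 ± 1.14, that of *Hoxa5* 0.63 ± 1.17 and that of *Hoxb5* 0.70 ± 1.39, with an adjusted p of 0.978 for each. Without HET2, WT3 and HET3 are the only female reference samples. The fold change then rose to 3.91 ± 0.82 for *Hoxa9*, 4.27 ± 0.68 for *Hoxa7* and 5.22 ± 1.07 for *Hoxb5*. In this fit edgeR called these 3 (adjusted p = 0.0482, 0.0400 and 0.0464), where 730 of 20603 genes were called. It did not call *Hoxa10*, at 3.24 ± 1.07 (edgeR adjusted p = 0.124), or *Hoxa5*, at 3.21 ± 1.17 (adjusted p = 0.1445). An exact 2-sided permutation test of log2 CPM between the 2 KO and 6 other samples gave p = 0.464 for *Hoxa9*, *Hoxa10*, *Hoxa5* and *Hoxb5* and p = 0.393 for *Hoxa7*, where 0.0357 is the smallest p the design allows.

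The fitted difference was smaller without WT3 and HET3. HET2 is then the only female reference sample, so each fold change is that of KO1 and KO2 against HET2, and this lone sample is assumed to vary like the others. In the 6 remaining samples, 0 of 21 members were called by edgeR (0% of all genes), and 2 members, *Hoxa10* and *Hoxb9*, were higher in KO at an unadjusted p under 0.05 (9.52% of the members), against 4.07% of all genes. The fold change was then 1.27 ± 0.63 for *Hoxa9*, 1.89 ± 0.64 for *Hoxa10*, 1.51 ± 0.71 for *Hoxa7*, 0.72 ± 0.72 for *Hoxa5* and 1.47 ± 0.66 for *Hoxb5*, with edgeR adjusted p of 0.682 to 0.731. With WT alone as the reference and sex in the model, WT3 is the only female reference, and edgeR called 4 members higher in KO, *Hoxa7*, *Hoxa9*, *Hoxa10* and *Hoxb5* (19.0%), against 3.16% of all genes. These calls compare KO1 and KO2 with the single library WT3, which stands apart and is assumed to vary like the others, and not the genotypes. The part of the marker levels of WT3 and HET3 in these differences was not tested.

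Counted without a model, 1 member, *Hoxa4*, had both KO samples above all 6 WT and HET samples (4.76% of 21), against 3.05% of all genes, and none had both below, against 1.79%. *Hoxa4*, a neighbour of *Hoxa5* known from axial patterning, had 45 reads in KO1 and 23 in KO2, against 9, 22 and 0 in WT1 to WT3 and 14, 12 and 3 in HET1 to HET3. Its reads are few, and 16.0% of its exon bases are shared with an antisense transcript. When WT3 and HET3 were left out, *Hoxa4* was still the sole member above the remaining 4 samples, against 4.35% of all genes. Against the 3 female WT and HET samples alone, 13 members had both KO samples above (61.9%), against 27.1% of all genes. On the authors' log2 values, which are corrected for sex, 12 members had both KO samples above all others (57.1%), against 19.3% of all genes. On that log2 scale *Hoxa9* stood at 12.5 in KO1 and 11.8 in KO2, against 8.98 to 11.1 in the 6 others, whereas in CPM WT1 and WT2 were above both KO samples.

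Males and females were compared within the 6 WT and HET samples because sex enters the main fits. edgeR called 0 of 21 members, against 0.0146% of all genes. At an unadjusted p under 0.05, 2 members, *Hoxb4* and *Hoxb9*, were higher in males (9.52%), against 10.7% of all genes. The fitted male minus female log2 fold change was 2.57 ± 1.19 for *Hoxa9* (edgeR adjusted p = 0.251), 2.46 ± 1.03 for *Hoxa10* (adjusted p = 0.223), 2.77 ± 1.17 for *Hoxa7* (adjusted p = 0.224), 1.60 ± 1.46 for *Hoxa5* (adjusted p = 0.533) and 3.15 ± 1.66 for *Hoxb5* (adjusted p = 0.296). The KO and the male comparisons share these reference samples. In CPM, 11 members had all 3 male samples above all 3 female WT and HET samples (52.4%), against 21.1% of all genes. In the same comparison 4 of 5 hepatocyte and 3 of 5 neutrophil markers were lower in males at an unadjusted edgeR p under 0.05, with median log2 differences of -5.03 and -4.65 over the lists, and none was called. The part of these cells in the Hox differences was not tested. Without WT3 and HET3 this comparison comes down to HET1 against HET2, 1 sample each, with a difference of 0.54 for *Hoxa9* and -0.41 for *Hoxa5*. It has no replicate check. Without HET2 instead, edgeR called 10 members higher in males, where 14.6% of all genes were called.

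The comparison of HET with WT asks about gene dose. edgeR, with sex in the model, called 0 of 21 members (0% of all genes), and at an unadjusted p under 0.05 it gave 0 members, against 3.63% of all genes. DESeq2 also called 0 members. The fold change of HET was -0.22 ± 1.19 for *Hoxa9* (edgeR adjusted p = 0.996) and -0.92 ± 1.01 for *Hoxa10* (adjusted p = 0.960). Without sex in the model it was -1.59 ± 1.22 and -1.82 ± 1.25 (adjusted p = 0.683 for both). For *Hoxa9* the value with sex ran from -1.72 ± 0.28 without HET2, where edgeR called this gene alone among the members (adjusted p = 0.0473, with 0.657% of all genes called), to 0.91 ± 1.45 without HET1, and it was 0.10 ± 0.80 without HET3. All 5 erythroid markers were higher in HET at an unadjusted edgeR p under 0.05, from 1.47 ± 0.59 for *Klf1* to 2.59 ± 0.81 for *Hba-a1* on the log2 scale (adjusted p = 0.931 for each), and their part in the Hox values was not tested.

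In CPM, each HET sample was below the WT sample of the same number in all 3 pairs for 9 of 21 members (42.9%), all 9 of them the expressed genes, against 21.4% of all genes. The deviations of same-numbered WT and HET samples from their group means correlated at 0.29, 0.20 and 0.59 in the 3 pairs, which were therefore also fitted as pairs, although WT2 correlated more with HET1 (0.40) than with HET2. With the number as a block the fold change was -1.82 ± 0.35 for *Hoxa9* (edgeR adjusted p = 0.436) and -2.50 ± 0.76 for *Hoxa10* (adjusted p = 0.801). In this fit 0 members were called, and 4, *Hoxa5*, *Hoxa7*, *Hoxa9* and *Hoxa10*, had an unadjusted p under 0.05, all lower in HET (5.21% of all genes had such a p in either direction). WT2 and HET2 differ in sex and inform only the sex term there, so these values rest on the pairs WT1 with HET1 and WT3 with HET3.

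Without WT3 and HET3, a comparison chosen after seeing the data, HET2 is the only female, and the fitted effect is that of HET1 alone against WT1 and WT2, all male. *Hoxa9* stood at 58.4 CPM in HET1 against a mean of 146 CPM in WT1 and WT2, a log2 difference of -1.33. In this fit edgeR passed 5 members as lower, *Hoxa5*, *Hoxa7*, *Hoxa9*, *Hoxa10* and *Hoxc6* (23.8%), against 6.32% of all genes, with the lone HET1 assumed to vary like the 2 WT samples, so these calls compare 1 sample and not the genotype. The 8 LT-HSC markers without *Kit* were lower in HET1 and HET2, at 571 and 439 CPM, than in WT1 and WT2, at 1612 and 1724 CPM, and the 5 erythroid markers summed to 10684 CPM in HET1 against 762 and 920 CPM in WT1 and WT2. The part of either list in the difference was not tested.

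**Figure D4:**
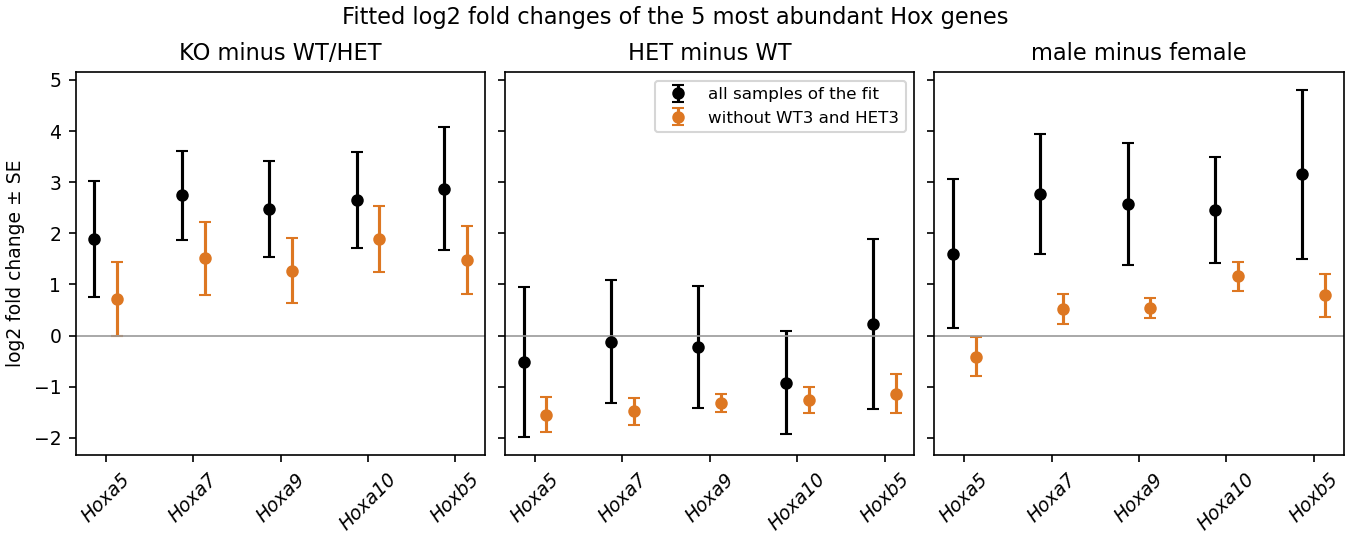
Fitted log2 fold changes with SE (edgeR) of the 5 members with a mean of at least 5 CPM, in 3 comparisons, from all samples of the fit (black) and without WT3 and HET3 (orange). For *Hoxa9* the KO difference is 2.47 with all samples and 1.27 without WT3 and HET3, and the male minus female difference is 2.57 and 0.54. The orange values rest on HET2 as the only female WT or HET sample, so they compare KO with HET2, HET1 with WT1 and WT2, and HET1 with HET2.

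The level of the Hox genes moved with the LT-HSC markers other than *Kit*. *Kit* was set aside after its level was seen to range only from 135 to 231 CPM. Per 100 CPM of the 8 markers other than *Kit*, the 39 members summed to 17.0 CPM in WT1, 16.4 in WT2, 17.6 in WT3, 19.5 in HET1, 17.3 in HET2, 13.1 in HET3, 16.2 in KO1 and 15.4 in KO2. This ratio spanned 1.49-fold, whereas the summed Hox CPM spanned 70.2-fold and the marker sum 55.9-fold. Both KO values lay above HET3 and below the other 5 WT and HET samples. *Hoxa9* alone gave 8.82, 8.74 and 7.93 CPM per 100 CPM of markers in WT1 to WT3, 10.2, 9.19 and 6.35 in HET1 to HET3, and 8.23 and 7.62 in KO1 and KO2. With *Kit* included, the ratio of the Hox sum fell to 8.62 in WT3 and 2.01 in HET3, against 12.4 to 15.8 in the other samples. That ratio spanned 7.87-fold. Without WT3 and HET3 the ratio to the markers other than *Kit* spanned 1.27-fold and the Hox sum 3.74-fold. All 9 markers had an unadjusted edgeR p under 0.05 for higher levels in KO and none was called by edgeR, as for *Hoxa9*, and without WT3 and HET3 this held for 2 of the 9. DESeq2 with apeglm called 3 of them higher, *Slamf1*, *Cd34* and *Fgd5*. A list of 6 endothelial markers ran the same way. It summed to 137, 147 and 12.9 CPM in WT1 to WT3, 47.9, 35.6 and 4.86 in HET1 to HET3, and 138 and 74.0 in KO1 and KO2. The adhesion molecule gene *Pecam1* and the angiopoietin receptor gene *Tek*, which stem cells also express, made up most of this sum. Both were higher in KO at an unadjusted edgeR p under 0.05, at 2.45 ± 0.75 and 3.18 ± 1.10 on the log2 scale (adjusted p = 0.152 and 0.156). *Kdr* was weaker but ran a similar course, at 4.77, 6.56 and 0.0521 CPM in WT1 to WT3, 0.585, 1.41 and 0 in HET1 to HET3, and 4.99 and 2.61 in KO1 and KO2. *Cdh5* followed it in part, at 3.37, 6.77 and 1.93 CPM in WT1 to WT3, 1.70, 1.46 and 0.119 in HET1 to HET3, and 3.28 and 1.48 in KO1 and KO2. *Stab2* and *Lyve1* were at or below 4.01 CPM in every sample. edgeR called none of the 6 and DESeq2 with apeglm called *Pecam1*. Without WT3 and HET3, with HET2 as the only female reference, the differences of *Pecam1* and *Tek* were 1.34 ± 0.64 and 1.80 ± 0.88. A list of 4 megakaryocyte markers was also lowest in WT3 and HET3, at 52.9 and 21.1 CPM, but its order differed in the rest. WT1 had 317 CPM, WT2 1185, HET1 129, HET2 401, KO1 907 and KO2 70.6. Of its genes *Ppbp*, a platelet chemokine gene, was higher in KO at an unadjusted edgeR p under 0.05 (adjusted p = 0.161), and neither tool called any of the 4. The part of these marker lists in the Hox differences was not tested.

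**Figure D5:**
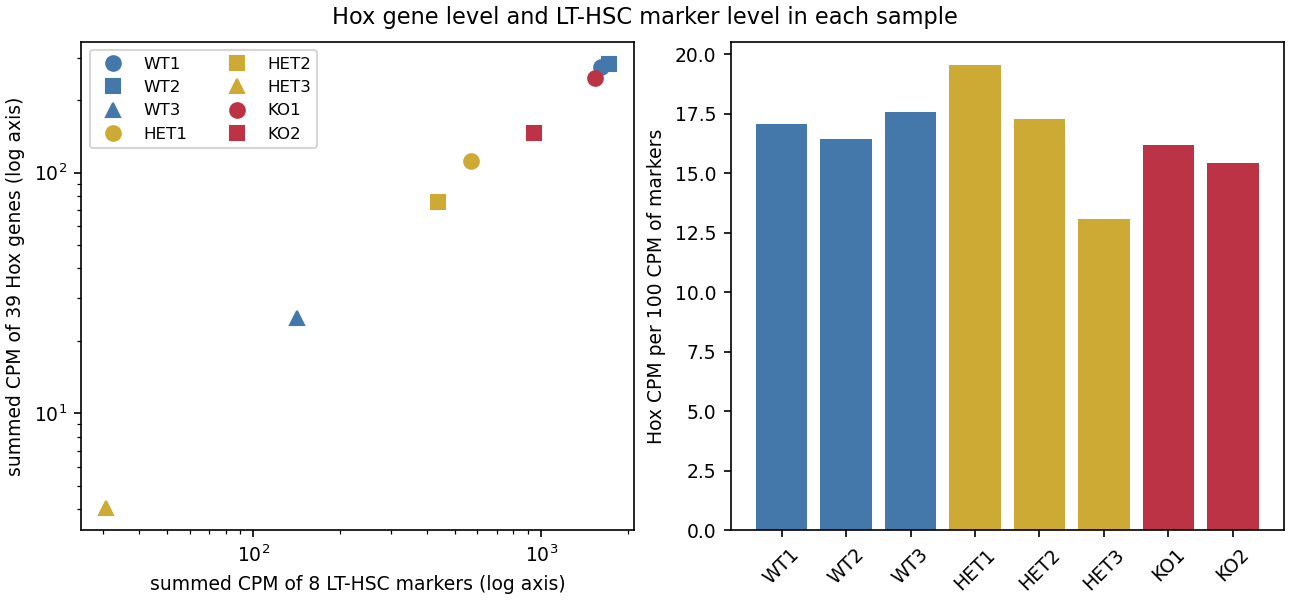
Left, summed CPM of the 39 Hox genes against the summed CPM of 8 LT-HSC markers (*Kit* left out) in each sample, on log axes; right, Hox CPM per 100 CPM of these markers in each sample. The Hox sum spans 4.03 to 283 CPM on the left, and the ratio on the right stays between 13.1 and 19.5. With *Kit* included the ratio runs from 2.01 to 15.8.

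The protein partners of HOX factors fell into genes that followed this pattern and genes that did not. Of 9 TALE genes, 8 were tested, none was called by edgeR, none was lower in KO at an unadjusted p under 0.05, and DESeq2 with apeglm called 1, *Meis1*. *Meis1* stood at 277, 256 and 21.7 CPM in WT1 to WT3, 96.6, 56.3 and 8.72 in HET1 to HET3, and 250 and 144 in KO1 and KO2. *Meis1* was higher in KO at an unadjusted edgeR p under 0.05, with a difference of 2.77 ± 0.71 on the log2 scale (adjusted p = 0.148). Without WT3 and HET3, with HET2 as the only female reference, the difference was 1.78 ± 0.69 (adjusted p = 0.682). *Pbx2* (13.2 to 26.8 CPM), *Pbx3* (9.11 to 26.6 CPM), *Pbx4* (10.6 to 21.4 CPM) and *Pknox1* (34.9 to 52.3 CPM) spanned narrower ranges. *Meis2* (0 to 6.26 CPM) and *Meis3* (0.281 to 3.80 CPM) were low, and *Pknox2* had 1 read.

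Of 14 genes that activate Hox transcription, 11 were tested and none was called by edgeR or by DESeq2 with apeglm. At an unadjusted edgeR p under 0.05, 3 of the 11 were higher and 1 lower in KO, against 15.7% and 9.48% of all genes. *Kmt2a*, which encodes the MLL methyltransferase, had a KO difference of 0.77 ± 0.22 on the log2 scale (edgeR adjusted p = 0.148), *Men1*, which encodes menin, 0.53 ± 0.19 (adjusted p = 0.161) and *Mllt3*, a subunit of the super elongation complex that maintains stem cells, 1.20 ± 0.34 (adjusted p = 0.148). The lower gene was *Dpy30*, a core subunit of MLL complexes, at -0.64 ± 0.22 (adjusted p = 0.156). Without WT3 and HET3 the differences were 0.49 ± 0.32, 0.49 ± 0.32, 0.77 ± 0.48 and -0.56 ± 0.35 in the same order, and none of the 11 had an unadjusted edgeR p under 0.05. *Mllt3* stood at 317, 302 and 88.3 CPM in WT1 to WT3, 160, 138 and 87.1 in HET1 to HET3, and 289 and 190 in KO1 and KO2, in an order close to that of *Hoxa9*. *Cdx1* and *Cdx2* had 1 read each and *Cdx4* none, although CDX factors activate Hox genes in the embryo.

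Genes beside the clusters did not share a common course. Of the 16 nearest protein-coding genes, 2 on each side of each cluster, 10 averaged 5 CPM or more, and none was called by edgeR in KO, whereas DESeq2 with apeglm called 2 higher, *Snx10* and *Calcoco1*. Of the 10, 3 were higher and 2 lower in KO at an unadjusted edgeR p under 0.05, against 15.7% and 9.48% of all genes. Beside Hoxa at its 3′ end, *Snx10* had a KO difference of 1.89 ± 0.50 (adjusted p = 0.148) and *Skap2* of 1.05 ± 0.32 (adjusted p = 0.152), and both were lowest in HET3, at 16.1 and 52.9 CPM, and next lowest in WT3, at 24.6 and 67.4 CPM. At its 5′ end, *Evx1* had 1 read and *Hibadh* was level, between 161 and 192 CPM. Beside Hoxc, *Calcoco1* had a KO difference of 1.75 ± 0.51 (adjusted p = 0.151), and *Cbx5* and *Smug1* on the other side differed by -0.30 ± 0.21 (adjusted p = 0.370) and 0.28 ± 0.26 (adjusted p = 0.517). Beside Hoxd, where members were silent, *Evx2*, next to *Hoxd13*, had 1 read each in HET1 and HET3, and *Lnpk* beyond it and *Mtx2* on the other side were abundant, at 17.3 to 81.3 CPM and 165 to 389 CPM, and were the 2 lower genes. Without WT3 and HET3 the differences of *Snx10*, *Skap2* and *Calcoco1* were 1.17 ± 0.58, 0.65 ± 0.45 and 1.30 ± 0.73 and those of *Lnpk* and *Mtx2* -0.94 ± 0.57 and -0.70 ± 0.33, and none had an unadjusted edgeR p under 0.05.

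Inside the cluster spans lie 46 annotated genes that are not members, mostly antisense and non-coding. Of these, 15 had any read, none averaged 5 CPM or more, 11 were tested, none was called by edgeR in KO and 1, *Hoxaas2*, was higher at an unadjusted edgeR p under 0.05 (adjusted p = 0.163). DESeq2 gave *Hoxaas2* an adjusted p of 0.0400, with a log2 change that apeglm shrank to 0.22, so it was not called there. It had 32, 50 and 0 reads in WT1 to WT3, 1, 0 and 0 in HET1 to HET3, 30 in KO1 and 1 in KO2. Its fitted log2 difference was 6.94 ± 2.42 in edgeR. Without WT3 and HET3 it was 6.99 ± 3.85, where the only female reference, HET2, had 0 reads. *Hoxb5os*, antisense to *Hoxb5*, averaged 2.75 CPM, *Gm11539*, annotated as a processed pseudogene between *Hoxb13* and *Hoxb9*, 2.57 CPM and *Hoxb3os* 1.39 CPM. *Gm11539* stayed between 1.62 and 3.62 CPM in all samples, WT3 and HET3 included. *Hoxb5os* was at 5.10, 5.72 and 0.469 CPM in WT1 to WT3, 2.34, 1.92 and 0 in HET1 to HET3, and 3.28 and 3.15 in KO1 and KO2, in an order close to that of *Hoxb5*. The strand setting of the counting is not stated, so reads on exon bases shared by sense and antisense genes cannot be told apart. *Hoxb5* shares 3.59% of its exon bases with *Hoxb5os*, and *Hoxb3* shares 52.9% with *Hoxb3os*. *Hotair* and all 7 microRNA genes in the spans had 0 reads in this count table of long cDNA.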

How the data were processed

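Bulk RNA-seq libraries of fetal liver LT-HSCs were analyzed (WT and HET with 3 samples each, KO with 2). According to the submitters' notes and the methods, the authors trimmed reads with Trim Galore 0.6.6, aligned them with STAR 2.7.8 to GRCm38 with a lowered limit on mismatches, kept unique reads and deposited raw counts per Ensembl gene. Unique mapping and unstated strandedness lower or blur the counts of overlapping genes. The authors also deposited log2 values that DESeq2 1.38.3 had variance-stabilized and limma had corrected for sex. They were used only as an alternative for counting members whose KO samples lie apart.

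Gene symbols, positions and exon lengths were taken from the GENCODE annotation of GRCm38 in a release older than that of the authors, and 39 of 39 members matched. Promoters were those of RefSeq on GRCm38.p6, and miRNA sequences and proteins were not used here. Genes with fewer than 10 reads over the 8 samples were left out of tests, which left 20610 genes, 21 of them members. Counts were normalized by TMM and tested with edgeR 4.0.16 in R 4.3.3 (legacy quasi-likelihood form), with sex in the model, Benjamini-Hochberg adjustment over all genes, and calls at an adjusted p under 0.05 with a log2 change beyond 1 in either direction. An alternative test was DESeq2 (version 1.42.0), also with shrinkage by apeglm (version 1.24.0). The SE of a fold change is its size divided by the square root of the F statistic. TPM used the merged exon length. The test was tried on simulated data, but the outcome is not given here and no result rests on it. No samples of a genotype agreed within sampling noise (chi-square per gene of 18.9 or more). The totals of 17895973 to 21720972 counts give a floor of 3 reads, or 0.125 to 0.178 CPM. Intervals cover counting error at the 95% level.

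Members with a mean of at least 1 CPM are named with the CPM of every sample and those of at least 5 CPM with fold changes; the rest are named with their reads or range, and list and neighbouring genes are named from 5 CPM or by position. Deviations from the group means over all tested genes correlated in each same-numbered pair of WT and HET samples (0.29, 0.20 and 0.59), so these samples were also fitted as pairs. The pairing is uncertain, since the labels do not say what a number marks and differently numbered samples correlated as well (0.40 for WT2 and HET1, 0.23 for WT1 and HET2). KO1 correlated positively with its number (0.28 with WT1 and 0.24 with HET1) and KO2 negatively (-0.35 with WT2 and -0.12 with HET2). With 2 KO samples the deviations from their mean mirror each other, so these values cannot decide whether KO is paired. KO was not paired in the main fits. The members, lists and rules were chosen with earlier results of these data known. Alternatives covered the tool, normalization, low-count filter, sex covariate, reference samples, replicate number as a block and each sample left out. Leaving out WT3 and HET3 together, fitting HET against WT over all 8 samples, and counting members below WT in each numbered pair, were added after seeing the data. The sum of LT-HSC markers without *Kit* was also added then, since the planned list included *Kit*. Some genes of the members and lists are not reported here by name.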

Additional observations from a re-analysis of the deposited data

How the results depend on the processing

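All counts here are of members called. With edgeR the KO count was 0 for all samples, 0 with HET alone as the reference and 0 with female samples only. The KO count, 0 with edgeR, was 8 with DESeq2, 7 with DESeq2 and apeglm, 3 with no filter on low counts and 4 with WT alone as the reference, and 0 to 3 when 1 sample was left out; the 3, without HET2, were *Hoxa7*, *Hoxa9* and *Hoxb5*. Over all genes, DESeq2 called 1825, DESeq2 with apeglm 1463, the unfiltered fit 1106, the fit with WT alone 662, the fit without HET2 730 and edgeR 0. For TALE cofactors the count was 1 with DESeq2, 1 with apeglm, 1 unfiltered, 2 with WT alone and 0 to 3 with 1 sample left out (3 without HET2), and for Hox activators 1 with DESeq2 and 1 unfiltered. HET against WT gave 5 without WT3 and HET3, where HET1 is the only sample that informs the HET effect and 1967 genes were called (9.6%), and 0 to 1 with 1 sample left out (*Hoxa9* without HET2, with 0.657% of all genes). Male against female gave 3 with DESeq2 (8.93% of all genes), 5 unfiltered (7.3%) and 0 to 10 with 1 sample left out (10 without HET2, with 14.6% of all genes). Members with both KO samples above all others numbered 12 on the authors' values, against 19.3% of all genes, and 13 against female samples, against 27.1%. With 1 sample left out the number was 1 to 4. The 4 came without KO2, where KO1 alone was counted. The share over all genes was not computed with 1 sample left out, so these numbers cannot be set against it. The Hoxa share was 90.6% without length scaling. The cause of these changes was not tested.

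In HET against WT, *Hoxb5* was -0.50 with the current edgeR form, -1.50 without sex, -1.14 without WT3 and HET3 and -1.63 to 1.78 with 1 sample left out. There *Hoxa5* ran from -2.35 to 0.53, *Hoxa7* from -1.48 to 1.34 and *Hoxa9* from -1.72 to 0.91 with 1 sample left out. In male against female, *Hoxa5* was -0.41 without WT3 and HET3, a difference of HET1 and HET2 alone. With a replicate block, 0 members were called in each comparison, and the block changed no call of a member. *Hoxb5* was then -1.82 in HET against WT, and *Hoxa5* was -1.53 and *Hoxa10* -0.16 in male against female. In KO, where pairing by number could not be decided, the block gave 1.31 for *Hoxa9*, 1.88 for *Hoxa10*, 1.53 for *Hoxa7*, 0.79 for *Hoxa5* and 1.57 for *Hoxb5*, with edgeR adjusted p of 0.803 to 0.899. Scaling by library size alone moved the median log2 fold change of all genes in KO from 0.13 to 0.41. Depth limits the 30 members below 1 CPM, and HET3 held 68 Hox reads.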
